A study of Mus musculus with 2 samples.

Results

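The translation initiation and elongation factor genes of the mouse, whose symbols start with Eif or Eef and a digit, were followed in total RNA of the embryonic forebrain. All protein-coding genes with such a symbol were taken by name alone, leaving out Eif2s3y, which gave 66 members among 21461 nuclear protein-coding genes of the tables. A 67th gene of that kind in GENCODE, Eef1akmt4, was not analysed here. The series holds 1 group, the untreated forebrain of strain B6NCrl, a C57BL/6 substrain, at embryonic day 14.5, with 2 libraries called replicates 1 and 2. The labels describe each library as the forebrain of a single embryo, collected on different days, yet give both the same donor entry and call the sex pooled male and female. With no other group, genes are compared within a library and each gene between the 2 embryos. Every error is an SD over both libraries (n = 2), and no p-value is given, since the smallest p that an exact test could reach here is 0.5.

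Levels are in TPM, a scale on which reads are divided by transcript length and genes can be compared within a library. The libraries held 35310017 and 29250404 expected counts, of which the 66 members took 612099 and 464836. The tissue label was met by its markers. In both libraries all 6 forebrain identity genes reached a TPM of 1, and none of the 5 Hox genes of hindbrain and spinal cord did, 3 of them having no read. Red blood cell markers summed to 4300 TPM in replicate 1 and 5524 TPM in replicate 2, and neuronal markers to 2450 and 2910 TPM. The Y-linked gene Ddx3y had 1717 and 1628 counts and Xist 2.52 and 0 counts, although both labels say mixed sex. In such bulk tissue, fewer cells of a type and less RNA per cell cannot be told apart.

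Protein synthesis starts when the small ribosomal subunit, loaded with initiator tRNA by eIF2 and held by eIF3, is recruited to the mRNA cap by eIF4F and scans to the start codon. eIF4F joins the cap-binding protein eIF4E, the RNA helicase eIF4A and the scaffold eIF4G. During elongation, eEF1A brings aminoacyl-tRNA to the ribosome, the eEF1B subunits recharge eEF1A with GTP, and eEF2 moves the ribosome along the mRNA. Many mRNAs of the translation machinery begin with a cytosine and a run of pyrimidines (the 5′ terminal oligopyrimidine motif), through which growth signals set their translation.

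Because that motif is the best-known sequence feature of this gene class, the first bases of 7 members are shown. Each line covers 20 bases before and 10 bases from the RefSeq start (GRCm38.p6), read 5′ to 3′ on the gene's strand. Capitals mark a C followed by 4 or more C or T that begins within 5 bases of that start.
Eef1a1, chr9:78481715-78481744, minus strand: cgtgtgctggctccgCCCTCTTCCCgaggg
Eef1a2, chr2:181157006-181157035, minus strand: gtttttctctcctggtctgcgttctcgctc
Eef2, chr10:81176611-81176640, plus strand: cgacctataaaaggccgggcgttgacgtca
Eif3f, chr7:108934395-108934424, plus strand: gctcttctgttctaggCTCTCTCTCTTTCT
Eif2s3x, chrX:94212642-94212671, minus strand: ggcggctgccgagcattttCCTTTTCTCTC
Eif4a1, chr11:69672414-69672443, minus strand: cgcctacaaagtaacgtcacgtcgagttgc
Eif4a2, chr16:23107448-23107477, plus strand: cagggccgcggaaaccccgtaggagcaggg
In Eif3f and Eif2s3x the run takes in the annotated start and the rule holds exactly there, whereas in Eef1a1 it holds only from a base before it. No such run begins within 5 bases of the start in Eef1a2, Eef2, Eif4a1 and Eif4a2. Of the 66 members, 50 had a RefSeq promoter entry. Exactly at the annotated start, 2 of the 50 (4%) began with a C and 4 or more pyrimidines, against 3.01% of 27025 genes of the promoter table. Within 5 bases either side the share was 13 of 50 (26%) against 21.2% of all genes. The 13 had a median of 68.0 TPM and the other 37 a median of 88.2 TPM. A match is a description of the letters only, and no match says nothing of the factor or of starts used in this tissue.

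The 250 bases before the RefSeq start are given for Eef1a1 and Eef1a2, since these genes encode nearly the same protein and lie far apart in level. Capitals mark GC boxes (GGGCGG or CCGCCC).
Eef1a1, chr9:78481725-78481974, minus strand: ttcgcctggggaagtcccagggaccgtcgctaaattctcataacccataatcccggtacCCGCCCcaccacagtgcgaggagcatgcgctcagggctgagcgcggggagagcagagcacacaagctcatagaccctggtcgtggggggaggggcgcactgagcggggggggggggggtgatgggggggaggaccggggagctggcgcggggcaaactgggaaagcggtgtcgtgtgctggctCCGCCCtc
Eef1a2, chr2:181157016-181157265, minus strand: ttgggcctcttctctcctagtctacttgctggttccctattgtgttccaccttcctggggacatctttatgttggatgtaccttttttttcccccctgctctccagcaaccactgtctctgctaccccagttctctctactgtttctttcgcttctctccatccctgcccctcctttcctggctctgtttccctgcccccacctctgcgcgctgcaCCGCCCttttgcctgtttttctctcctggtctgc
The Eef1a1 stretch holds 2 GC boxes and the Eef1a2 stretch 1, and neither holds CCAAT or TATAAA on either strand. A GC box lay in the same window of 36 of the 50 members (72%), against 35.4% of all 27025 genes and 65.4% of the 10022 genes of that table detected here at a TPM of 1 or more. CCAAT or ATTGG was found in 15 members (30%), against 37.5% of all genes and 41.1% of those detected. TATAAA or TTTATA was found in 4 (8%), against 14.3% and 7.54%. All were searched on both strands, and none contains another, though ATTGG and GGGCGG can overlap at their ends.

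The class was detected almost whole and at high levels. Of 66 members, 64 (97.0%) were detected, that is at a TPM of at least 1 in replicate 1 and in replicate 2, against 59.6% of all nuclear protein-coding genes. A mean TPM of 100 or more was reached by 26 members (39.4%), against 7.59% of all genes, and 5 members passed 1000 TPM. Another 29 lay between 10 and 100 TPM and 9 between 1 and 10 TPM. The median member stood at 78.7 TPM in replicate 1 and 79.9 TPM in replicate 2, with an SD of 0.856 TPM (n = 2). The median of the mean levels was 80.5 TPM, beside 4.25 TPM for all nuclear protein-coding genes and 19.4 TPM for those detected. The members' summed share of TPM was 1.59% and 1.52%. The 2 members not detected were Eif4e1b, with no read in either library, and Eef1akmt3, a lysine methyltransferase acting on eEF1A, with 3 and 2 counts (0.05 and 0.04 TPM). The limit set by a count of 0 is 3 counts, which at an effective length of 1 kb is 0.131 TPM in replicate 1 and 0.170 TPM in replicate 2, for counting error only.

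**Figure D1:**
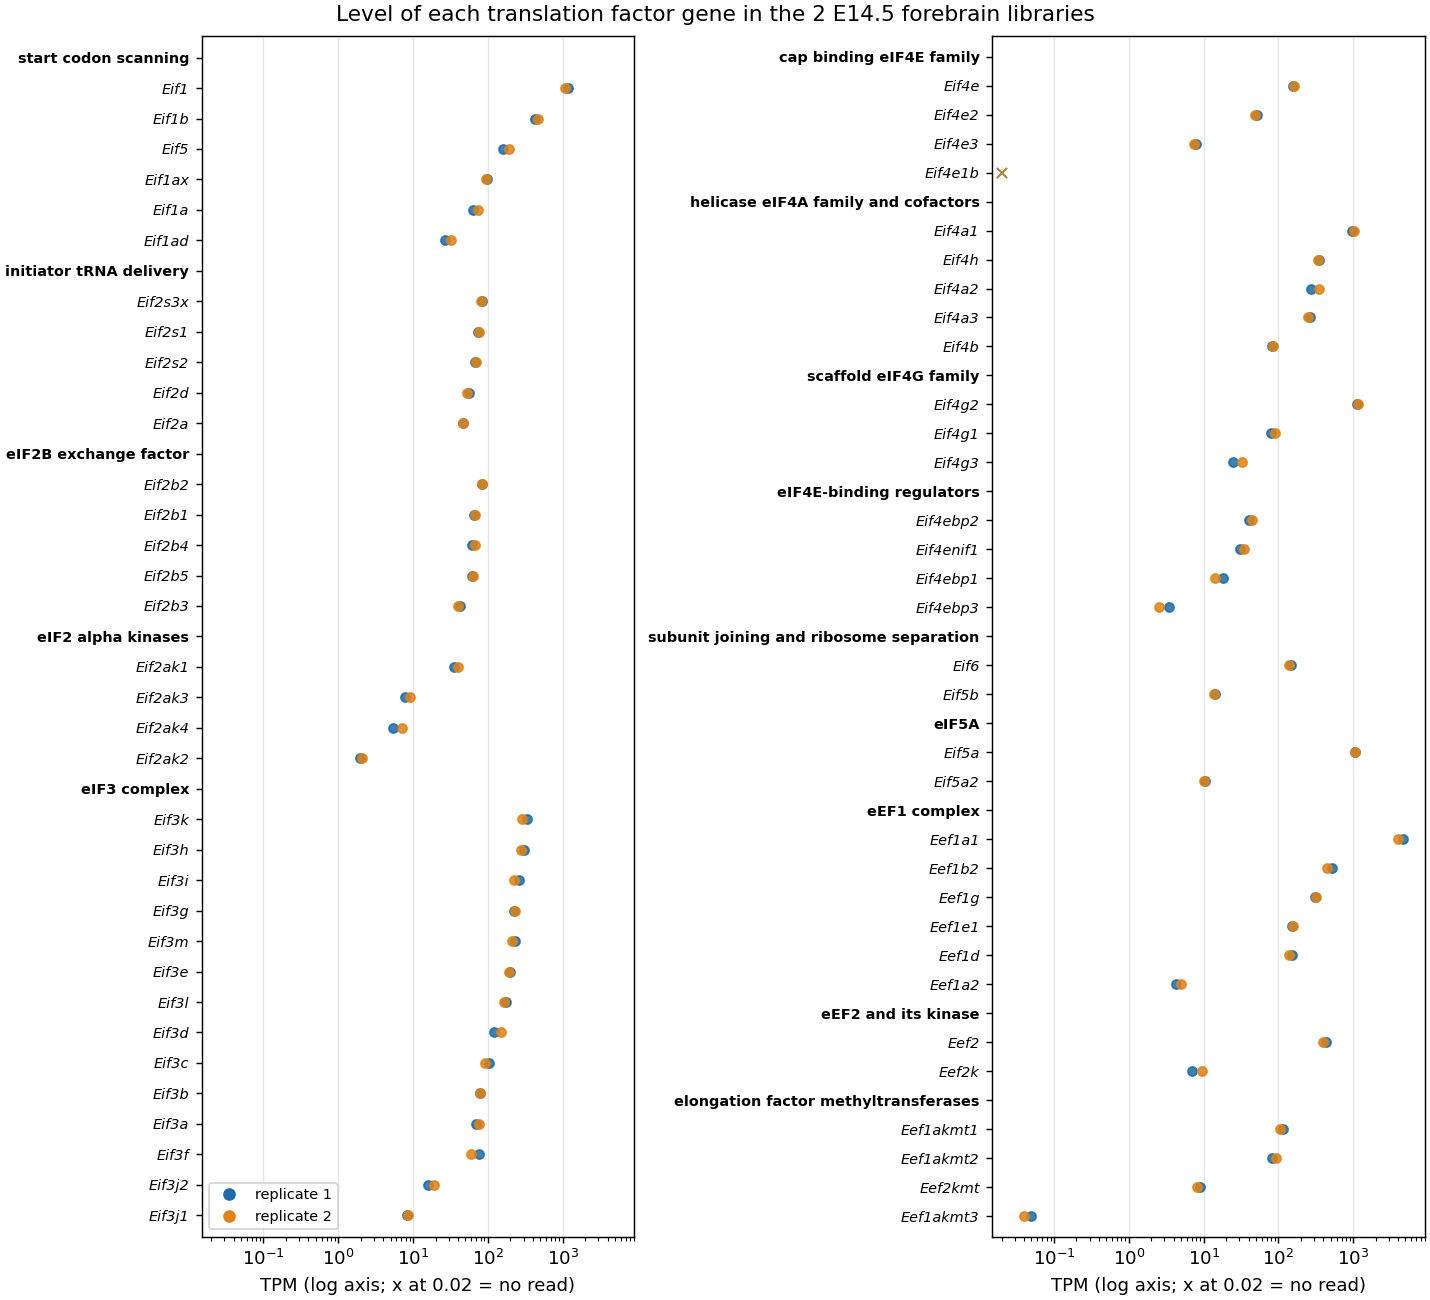
TPM on a log axis of each of the 66 translation factor genes, grouped by role, with 1 point for each of the 2 libraries; crosses mark Eif4e1b, which had no read. Eef1a1 lies highest at a mean of 4293 TPM, and the points of the 2 embryos nearly coincide in most rows.

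Among the factors that scan for the start codon, Eif1, which keeps the scanning ribosome from settling on wrong codons, was the highest. It stood at 1173 TPM in replicate 1 and 1060.3 TPM in replicate 2. Its near copy Eif1b, identical at 92.0% of aligned residues, stood at 428 and 464 TPM, so that Eif1 exceeded it 2.74-fold and 2.29-fold. Over protein-coding transcripts alone the log2 ratio of Eif1 to Eif1b was 0.44, against 1.32 ± 0.19 over all transcripts. Of the 100-base windows of the leading coding transcript of Eif1, 19.2% also occur in 6 other genes. Eif5, which makes eIF2 hydrolyse its GTP once the start codon is found, stood at 161 and 194 TPM. Eif1ax and Eif1a encode the factor eIF1A from 2 genes and are identical at 98.6% of residues. Eif1ax stood at 97.6 and 93.4 TPM and Eif1a at 64.1 and 73.6 TPM. This order was the reverse when only protein-coding transcripts were summed, with a log2 ratio of 0.48 ± 0.19 over all transcripts and of -0.45 over coding ones. Eif1ad, a gene with an eIF1A-like domain, was the lowest of the role at 26.9 and 32.0 TPM. Its level is uncertain, since 13.4% of its 100-base windows also occur in Banf1, a gene on the other strand at 436 and 401 TPM.

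The 3 member genes for subunits of eIF2, the GTPase that carries the initiator tRNA, were close to each other. Eif2s3x (gamma, which binds the tRNA and GTP) stood at 83.5 and 80.9 TPM, Eif2s1 (alpha, whose phosphorylation slows initiation) at 73.6 and 76.2 TPM, and Eif2s2 (beta) at 68.1 and 68.6 TPM. Highest and lowest differed 1.20 ± 0.033-fold. The lowest member of this role was Eif2a, an unrelated protein that can deliver initiator tRNA without eIF2, at 46.9 TPM in both libraries. The 5 subunits of eIF2B, the exchange factor that recharges eIF2 with GTP, spanned 1.99 ± 0.062-fold. Eif2b2 led them at 83.3 and 82.3 TPM, before Eif2b1 at 66.2 and 68.1 TPM, and Eif2b3 was the lowest at 42.8 and 40.5 TPM.

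The 4 kinases that phosphorylate eIF2 alpha spread more widely. Eif2ak1 (HRI), the heme-regulated kinase known for its role in red cell precursors, stood at 35.3 and 39.8 TPM. Eif2ak3 (PERK), the kinase of the endoplasmic reticulum, stood at 7.79 and 9.15 TPM. Eif2ak2 (PKR), activated by double-stranded RNA, was the lowest at 1.98 and 2.08 TPM, with 76.3 and 81.9 counts. Eif2ak1 thus exceeded Eif2ak2 by 17.8-fold and 19.1-fold over all transcripts. In Eif2ak2, however, a retained intron of 704 nt held 59.7 ± 6.96% of TPM and 19.0% of counts. The coding Eif2ak2-201 stood at 0.59 and 0.94 TPM, under the TPM of 1 set for detection. The sum of the 5 red blood cell markers was 4300 and 5524 TPM, mostly from the globin genes Hba-a1 and Hbb-bs, and their part in the Eif2ak1 level was not tested. In addition, Eif2ak1 shares 9.20% of its 100-base windows with Aimp2, a gene on the other strand at 84.1 and 80.3 TPM.

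eIF3, the largest initiation factor, holds the small subunit and the mRNA together. Its 12 genes without the loosely bound eIF3j spanned 4.84 ± 0.063-fold. Eif3k led at 338 and 289 TPM and Eif3h followed at 303 and 278 TPM. The lowest was Eif3a, the scaffold subunit, in replicate 1 (69.3 and 75.9 TPM) and Eif3f in replicate 2 and by the mean (75.6 and 60.3 TPM). Levels fell with transcript length: Spearman's rho between mean TPM and effective length was -0.92 over these 12 genes, beside -0.41 over the 64 detected members and -0.29 over the 12795 detected nuclear protein-coding genes. These correlations are across genes of the same libraries, share their length correction and carry no test. Eif3d stood at 122 and 152 TPM, and 43.3% of its exon bases face an antisense gene, Gm17638, at 0.82 and 1.08 TPM.

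**Figure D2:**
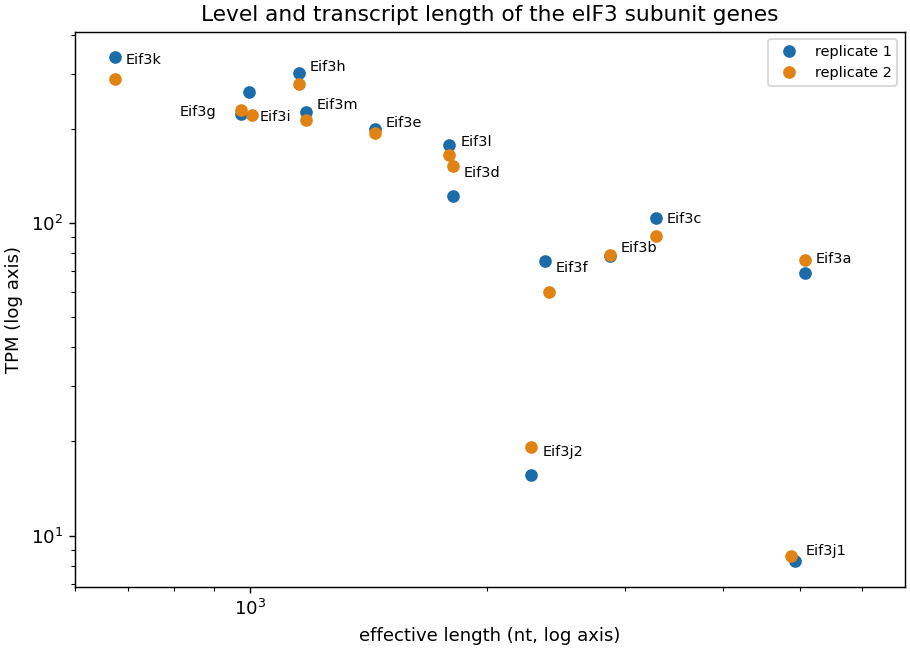
TPM against effective length, both on log axes, for the 14 eIF3 genes, with 1 point per library and the gene's name beside it. Levels are highest at the left, at Eif3k, and lower among the longer genes at the right, with Eif3a the lowest core gene in replicate 1 and Eif3f in replicate 2, and both eIF3j genes lie under all of them.

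The 2 genes annotated for eIF3j had far lower RNA levels. Eif3j2 stood at 15.7 and 19.3 TPM and Eif3j1 at 8.27 and 8.62 TPM, the latter being the lowest of the role. Their log2 ratio (Eif3j1 over Eif3j2) was -1.04 ± 0.17, but their counts, not divided by length, gave 0.06. The 2 proteins were identical at 99.2% of aligned residues, and 84.0% of the 100-base windows of Eif3j2 occur in Eif3j1 too, so the split of their reads is uncertain.

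In the cap-binding family, Eif4e was the leading gene and Eif4e1b had no read. Eif4e, the cap-binding subunit of eIF4F (ENSMUSG00000028156.8, chromosome 3, 138526179 to 138559696, plus strand, GRCm38), stood at 158 TPM in replicate 1 and 160.5 TPM in replicate 2. Eif4e2 (4EHP), which binds caps without recruiting eIF4G and acts in repression, stood at 51.1 and 48.0 TPM. Eif4e3, a divergent member, stood at 7.89 and 7.54 TPM. A pair was called separated when the TPM intervals deposited with the tables did not overlap in either library and the order was the same, and all 3 of these genes were separated from each other. The log2 ratio of Eif4e to Eif4e2 was 1.68 ± 0.08 (3.21-fold) and that to Eif4e3 was 4.37 ± 0.06 (20.6-fold). Eif4e held 73.5 ± 1.08% of the family's TPM, Eif4e2 22.9% and Eif4e3 3.57%.

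Eif4e1b, a form known from oocytes, had 0 counts in both libraries. Against the level of 3 counts per library, a limit for counting error only, Eif4e was at least 1051-fold higher in replicate 1 and at least 824-fold higher in replicate 2. The deposited interval of Eif4e1b was wider, reaching 1.04 TPM in replicate 1 and 1.35 TPM in replicate 2, and so allows smaller ratios. The log2 ratio, 9.86 against 3 counts, was 7.78 by the deposited posterior means and 7.32 with a pseudocount of 1 TPM. Of the 4 oocyte markers 2 were detected, and the 4 summed to 4.44 and 4.39 TPM. By coding sequence, Eif4e is identical to Eif4e1b at 51.0% of aligned residues, to Eif4e2 at 28.2% and to Eif4e3 at 27.6%, so the order of levels is not that of likeness.

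Of the helicase genes, Eif4a1 was the highest. Eif4a1, the main helicase of eIF4F (ENSMUSG00000059796.12, chromosome 11, 69666936 to 69672423, minus strand), stood at 978 TPM in replicate 1 and 1040.3 TPM in replicate 2. Eif4a2, identical to it at 90.2% of residues, stood at 276 and 348 TPM. Eif4a3, a core part of the exon junction complex that marks spliced mRNA, is identical to Eif4a1 at 66.0% and stood at 264 and 252 TPM. Eif4a1 was separated from both, by a log2 ratio of 1.70 ± 0.17 over Eif4a2 (3.27-fold) and 1.97 ± 0.11 over Eif4a3 (3.92-fold). Eif4a2 and Eif4a3 were the single pair of the 18 compared that was not separated. Their ratio was 1.05-fold in replicate 1 and 1.38-fold in replicate 2, and their intervals overlapped in replicate 1. Over coding transcripts alone the log2 ratio was -0.037, against 0.27 ± 0.28 over all transcripts. Eif4a1 held 63.9 ± 0.679% of the family's TPM, Eif4a2 19.7 ± 2.13% and Eif4a3 16.4 ± 1.45%. The share of Eif4a1 carries a limit, because 60.8% of its 100-base windows also occur in the processed pseudogene Eif4a-ps4, listed at 37.4 and 33.5 TPM.

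The helicase has 2 RNA-binding cofactors here, Eif4h and Eif4b. Eif4h stood at 346 and 337 TPM and Eif4b, the lowest of the role, at 82.5 and 83.5 TPM. Eif4h exceeded Eif4b by a log2 ratio of 2.04 ± 0.04 (4.11-fold), the intervals lying apart in both libraries.

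The scaffold family was led by Eif4g2, not by the eIF4F scaffold. Eif4g2 (DAP5, ENSMUSG00000005610.12, chromosome 7, 111067750 to 111083030, minus strand), which lacks the eIF4E-binding part and serves cap-independent initiation, stood at 1125 and 1155 TPM. Eif4g1, the main scaffold of eIF4F, stood at 78.8 and 90.6 TPM. Eif4g3, its closest relative, stood at 24.4 and 33.0 TPM. Eif4g2 held 91.0 ± 0.900% of the family's TPM, Eif4g1 6.75 ± 0.479% and Eif4g3 2.28 ± 0.421%. The log2 ratio of Eif4g1 to Eif4g2 was -3.75 ± 0.12, that is 13.5-fold lower, and that of Eif4g1 to Eif4g3 was 1.58 ± 0.17 (2.99-fold). Eif4g2 exceeded Eif4g3 by a log2 ratio of 5.53 in replicate 1 and by a log2 ratio of 5.13 in replicate 2. Eif4g1 is identical to Eif4g3 at 46.1% of aligned residues and to the much shorter Eif4g2 (906 against 1600 residues) at 17.8%.

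The 3 main eIF4F genes differed in level. Eif4a1 exceeded Eif4e 6.34 ± 0.200-fold, and Eif4e exceeded Eif4g1 1.89 ± 0.163-fold, so that the helicase and the scaffold lay 11.9 ± 0.658-fold apart. The eIF4E-binding proteins, which compete with eIF4G for eIF4E until mTORC1 phosphorylates them, were lower. Eif4ebp2, the form that prevails in brain, stood at 40.2 and 44.9 TPM, and Eif4e exceeded it 3.75 ± 0.245-fold. Eif4ebp1 stood at 18.1 and 14.0 TPM, under Eif4ebp2 in both libraries (log2 ratio of Eif4ebp2 to Eif4ebp1 1.42 ± 0.37). Eif4ebp3 was the lowest at 3.50 and 2.56 TPM, with 51.7 and 29.1 counts. Of its 100-base windows, 62.8% also occur in AC115631.1, a gene not analysed here, so its level is uncertain. Eif4enif1, which carries eIF4E to the nucleus and to P-bodies, stood at 30.6 and 34.6 TPM.

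**Figure D3:**
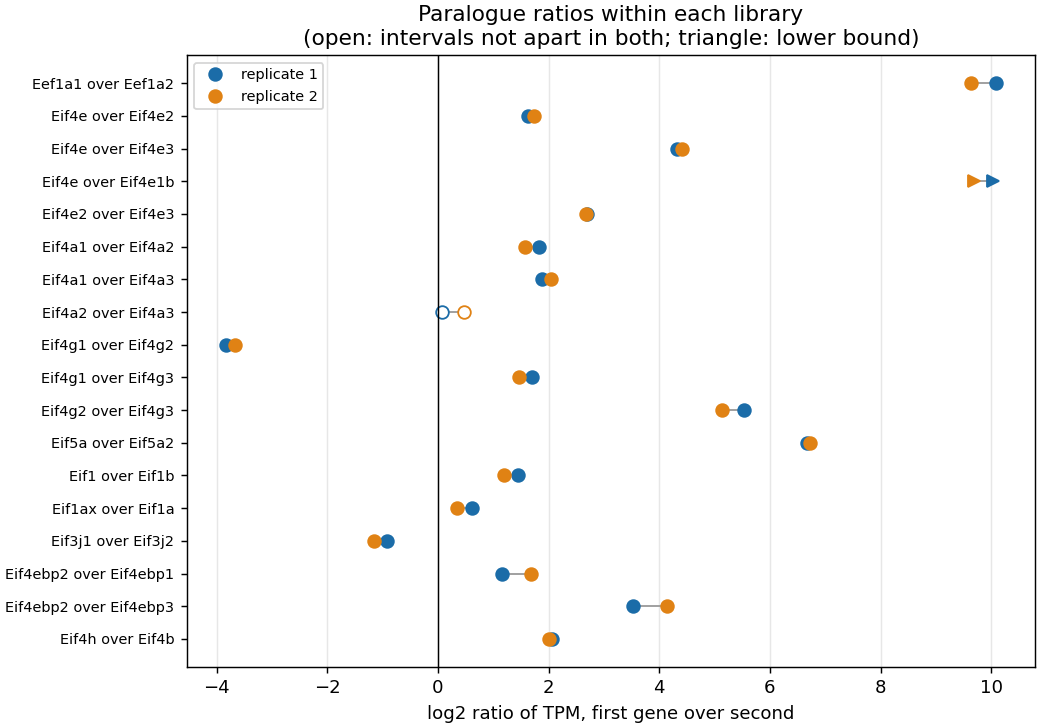
Log2 ratio of TPM within each library for the 18 paralogue pairs, with 1 point per library joined by a line; open points mark the pair that was not separated and triangles a ratio against the level of 3 counts. Eef1a1 over Eef1a2 lies near 10 in both libraries, Eif4a2 over Eif4a3 near 0, and Eif4g1 lies to the left of 0 against Eif4g2.

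In all, 17 of the 18 pairs were separated, 10 of the 11 within the eEF1A, eIF4A, eIF4E and eIF4G families and all 7 of the others. The SD of the log2 ratio between libraries had a median of 0.17 and a highest value of 0.43, and each of the 17 ratios exceeded its own SD.

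Eif5a, the factor that carries hypusine and helps the ribosome past hard peptide bonds, stood at 1060 TPM in replicate 1 and 1068 TPM in replicate 2. Its paralogue Eif5a2, identical at 82.5% of residues, stood at 10.4 and 10.1 TPM. The ratio was 102-fold and 106-fold, with a log2 mean of 6.70 ± 0.03, among the most alike of the ratios between the embryos. Eif6, which keeps the large ribosomal subunit apart until it is ready to join, stood at 148 and 139 TPM, and Eif5b, the GTPase that joins the subunits, at 14.2 and 13.7 TPM. Eif5b was thus the lower by 10.4-fold and 10.1-fold.

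The widest contrast among pairs with both genes detected was that of the eEF1A genes. Eef1a1 (ENSMUSG00000037742.10, chromosome 9, 78478449 to 78489151, minus strand) stood at 4599.8 TPM in replicate 1 and 3985 TPM in replicate 2. It was the highest of all members and ranked 10th among the 21461 nuclear protein-coding genes. Eef1a2 (ENSMUSG00000016349.10, chromosome 2, 181147653 to 181157014, minus strand), the form known from skeletal muscle, heart and mature neurons, stood at 4.23 and 5.03 TPM, from 192 and 176 counts. The values of both genes lie far apart in each library. Eef1a1 exceeded Eef1a2 1087-fold in replicate 1 and 792-fold in replicate 2, a log2 ratio of 9.86 ± 0.32, and held 99.9% of the TPM of the pair. The proteins have 462 and 463 residues and are identical at 92.2% of aligned residues. Eef1a2 shared no 100-base window with another gene, whereas 26.7% of the windows of Eef1a1 occur in 10 other genes, the leading one being the pseudogene Gm13456 at 8.33 and 7.61 TPM. Of 5 skeletal muscle markers 2 were detected and the 5 summed to 8.23 and 5.97 TPM, and their part in the Eef1a2 level was not tested.

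Of the eEF1B subunits, Eef1b2 stood at 514 and 450 TPM, Eef1g at 308 and 315 TPM and Eef1d at 153 and 141 TPM, a range of 3.27 ± 0.113-fold. Eef1a1 exceeded Eef1b2, its exchange factor, 8.91 ± 0.059-fold. Eef1e1, a partner of the aminoacyl-tRNA synthetase complex, stood at 153 and 159 TPM. The level of Eef1g carries a limit, since 49.4% of its windows occur in other genes, nearly all of them in the pseudogene Gm4366, which was not analysed here. Eef2, the translocase, stood at 429 and 400.3 TPM, and Eef1a1 exceeded it 10.3 ± 0.545-fold. Its inhibitory kinase Eef2k stood at 7.10 and 9.48 TPM, which put Eef2 60.4-fold above it in replicate 1 and 42.2-fold in replicate 2. Of the enzymes that methylate elongation factors, Eef1akmt1 led at 115.6 and 104.3 TPM, Eef1akmt2 followed at 82.8 and 93.5 TPM, and Eef2kmt stood at 8.95 and 8.24 TPM. The level of Eef2kmt is uncertain, since 18.1% of its windows occur in Alg1, a gene on the other strand at 26.8 and 29.9 TPM.

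Some of these levels rest in part on transcripts not annotated as protein coding. Over all members, protein-coding transcripts held 85.3 ± 1.28% of TPM, processed transcripts with no reading frame 10.7%, transcripts marked for nonsense-mediated decay 2.15% and retained introns 1.68%. In 35 of the 65 members with reads the coding share was 99% or more, and in 13 it was under 80%. Among these 13 is Eif2b4, where 51.7 ± 2.05% of TPM lay in transcripts absent from GENCODE M21, whose type is therefore not known here. When expected counts were used in place of TPM, 4 members were under 80%. In Eef1a1, the coding Eef1a1-201 held 77.2 ± 1.13% of TPM (3310 TPM) and Eef1a1-204, a processed transcript of 505 nt, 21.2% of TPM but 6.14% of counts. In Eif1, the coding Eif1-201 held 53.4 ± 2.80% and a processed transcript of 383 nt 35.3%. In Eif1ax, a retained intron of 416 nt held 47.5 ± 0.723% of TPM and 5.35% of counts. The short transcripts thus take far more of the TPM than of the counts in these 3 genes.

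Decay transcripts weighed most in a few other members. In Eif2a, Eif2a-207 held 48.3 ± 0.227% of TPM, about as much as the coding Eif2a-201 at 46.5 ± 3.47%. In Eef1b2, Eef1b2-205 held 36.1 ± 0.796%. In Eif4g1, Eif4g1-222 held 27.1% in replicate 1 and 19.1% in replicate 2, beside 44.9 ± 1.11% for the full-length Eif4g1-201. Eif4g2 was shared by the coding Eif4g2-213 at 46.1 ± 0.183% and Eif4g2-206 at 39.2 ± 1.12%. Eif4a2 had a coding share of 64.3 ± 6.08% , and its leading transcript Eif4a2-203 held 44.5% in replicate 1 and 54.7% in replicate 2. In contrast, Eef1a2, Eif4e, Eif4e3, Eif4h, Eif4b, Eif5a2 and Eef2 had coding transcripts alone.

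**Figure D4:**
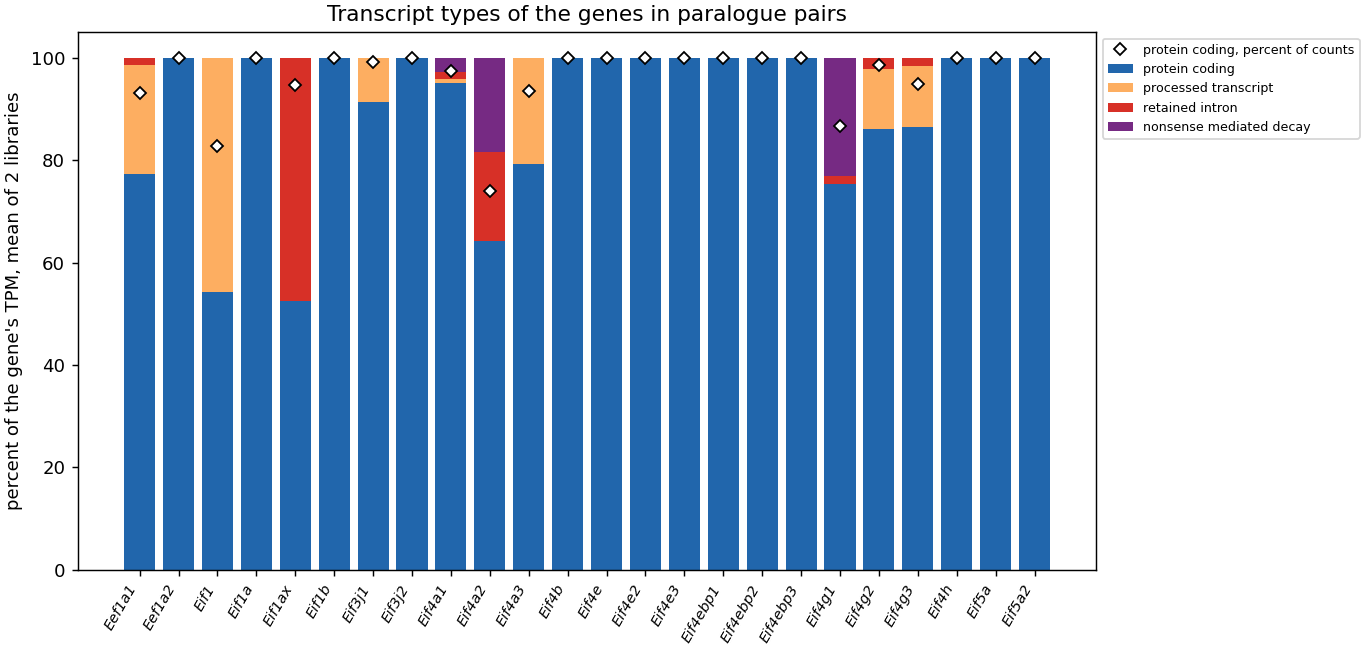
Percent of each gene's TPM in transcripts of each type, as stacked bars (mean of the 2 libraries), for the genes of the paralogue pairs with reads; diamonds give the coding share of expected counts. Coding bars end near 53% for Eif1ax and 54% for Eif1, while their diamonds stand at 94.7% and 82.8%.

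No member differed by 2-fold between the 2 embryos. Of 61 members with a mean TPM of 5 or more, 0 were 2-fold or more higher and 0 lower in replicate 2 with intervals apart, where 0.231% of 10368 nuclear protein-coding genes were higher and 0.0772% lower. The design allows no p-value here. Intervals lay apart at some fold for 28 members (45.9%), 14 in each direction, near the background of 47.2% of all genes. Among these 61, the log2 ratios of replicate 2 to replicate 1 farthest from 0 in each direction were 0.44 for Eif4g3 (24.4 and 33.0 TPM) and -0.37 for Eif4ebp1 (18.1 and 14.0 TPM). The median size of the log2 ratio was 0.10 for the members and 0.19 for all genes. These sizes were not centred, and the median ratio itself was 0.01 for the members and 0.15 for all genes. The difference in size thus depends on the scaling and was not read as a trait of the members.

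The ratio moved with transcript length. For effective lengths up to 1000 nt the median log2 ratio was -0.15 over 11 members and -0.13 over 1127 genes. From 1000 to 2000 nt it was -0.06 over 20 members and 0.07 over 2889 genes. From 2000 to 4000 nt it was 0.02 over 21 members and 0.19 over 4335 genes, and above 4000 nt 0.18 over 9 members and 0.30 over 2015 genes. The medians rose from the shortest to the longest class in the members and in all genes, while single members of a class had ratios of either sign, and the part of length in each member's ratio was not tested. Scaling the counts by edgeR's TMM factors moved the median of all genes from 0.15 to -0.03 and that of the members from 0.01 to -0.17, so the direction of a small ratio depends on the scaling.

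**Figure D5:**
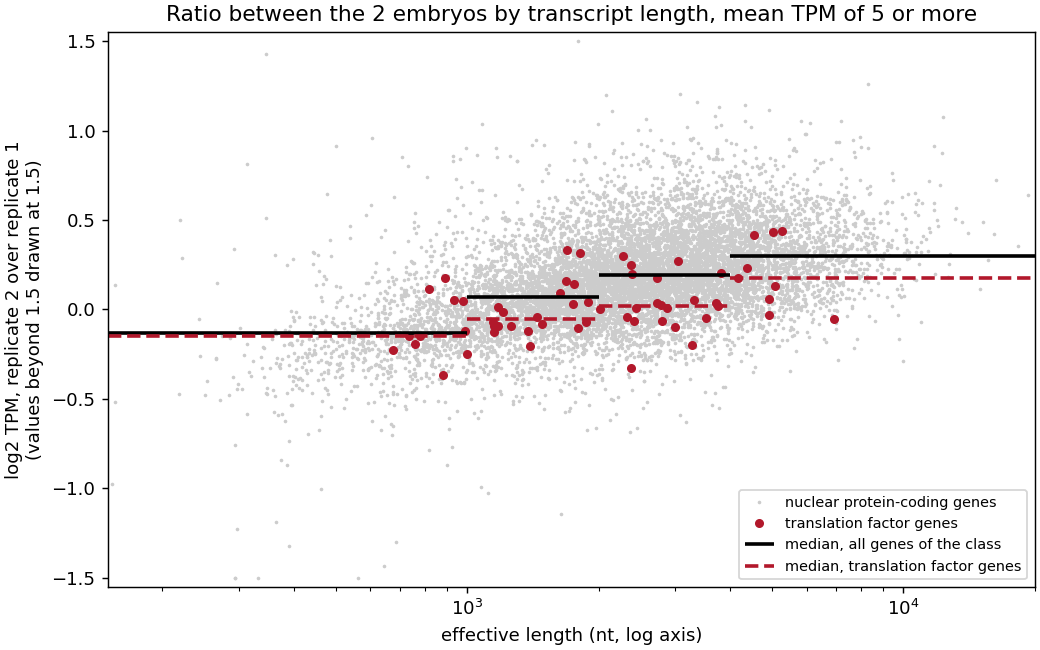
Log2 ratio of TPM, replicate 2 over replicate 1, against effective length on a log axis, for 61 translation factor genes (red) over 10368 nuclear protein-coding genes (grey), with the median of each length class. Both medians climb from the shortest class (-0.15 and -0.13) to the longest (0.18 and 0.30).

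Other genes of the translation pathway, taken from 9 lists, were present alongside. Of their 55 genes 53 were detected, against 59.6% of all nuclear protein-coding genes. Of the 51 compared 0 differed between the embryos, where 0.231% of 10368 nuclear protein-coding genes were higher and 0.0772% lower. With so small a background, 0 was not read as a trait of these lists. Release and recycling factors were led by Mcts1, which helps recycle the small subunit, at 136 ± 3.48 TPM (6 of 6 detected), and poly(A)-binding partners by Paip2, which inhibits the poly(A)-binding protein, at 341 ± 14.3 TPM (5 of 5). The enzymes that put hypusine on eIF5A and diphthamide on eEF2 were all 8 detected, led by Dph3 at 75.5 ± 5.73 TPM. All 10 genes of a list of mTORC1 components, mTORC1 effectors and eIF4E kinases were detected, led by the mTORC1 component Akt1s1 at 61.3 ± 3.73 TPM. A list of translational repressors and of proteins linked to the eIF4E family was led by Cyfip2 at 57.7 ± 13.5 TPM (6 of 6). Mitochondrial translation factors were led by Tufm, the mitochondrial counterpart of eEF1A, at 114 ± 7.10 TPM (9 of 9), and selenocysteine factors by Secisbp2 at 23.3 ± 0.184 TPM (2 of 2).

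Downstream of eIF2 phosphorylation, 5 of 7 targets of the integrated stress response were detected. Atf4, the factor whose translation rises when eIF2 alpha is phosphorylated, stood at 111 and 119 TPM. Asns stood at 51.7 and 57.9 TPM, Ddit3 at 23.7 and 23.8 TPM, Chac1 at 3.13 and 2.95 TPM and Sesn2 at 2.45 and 3.82 TPM. Not detected were Trib3 (0.20 and 0.68 TPM) and Atf3 (0.78 and 1.29 TPM), the latter reaching a TPM of 1 in replicate 2 only. The phosphatase subunit Ppp1r15b, which directs the removal of that phosphate, stood at 22.2 and 27.0 TPM.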

How the data were processed

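Total RNA of 2 forebrains was measured by RNA-seq from 10 ng of RNA longer than 200 nt, per the labels' protocols, which also link a Smart-seq protocol that primes on poly(A) tails. The deposited tables of genes and transcripts give expected counts (estimated read numbers), TPM (transcripts scaled to a fixed sum), FPKM and each transcript's percent within its gene, per the file headers. They rest on mm10 (GRCm38) and GENCODE M4. The aligner, the quantification program and any use of strand are not given in the sources used here. The deposited bounds of each TPM, treated as signal values, have no stated level, and the TPM of 16 members in replicate 1 and 24 in replicate 2 lay outside their own interval.

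Names, types and coordinates came from GENCODE M21, which matched 42462 of 43346 Ensembl rows (98.0%). Effective lengths were 99 nt under the lengths, as for 100-nt reads. Windows of 100 bases of each member's leading coding transcript were searched in the transcripts of all other genes. These sequences are those of M21, and some differ in length from the M4 transcripts behind the levels. Eif4ebp2-201 has 5784 nt in M21 and 1786 nt in the deposited tables, Eif4e-201 4991 and 2882 nt, and Eif4a2-203 1227 and 1875 nt. Shared windows are thus not exactly those of the measured transcripts, and TPM ratios such as Eif4e over Eif4ebp2 rest on the M4 lengths. For 18 members, exons overlap a gene on the other strand (7 by 10% or more of bases), whose reads may not be told apart. The labels call the libraries biological replicates. Their counts differed by a chi-square per degree of freedom of 23.1 over 15150 genes (median per gene 4.39), which was used only to check that they are not copies of 1 library.

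A gene counted as detected when neither library put it under a TPM of 1. Genes differed between embryos at a mean TPM of 5 or more, a ratio of 2-fold or more and deposited intervals apart. A gene under 3 counts was set to 3 counts in ratios. Protein identity came from translated GENCODE coding sequences, in place of the reference proteins planned, by global alignment (Biopython 1.88, BLOSUM matrix, gap costs 10 and 0.5). TMM factors came from edgeR 4.0.16 on expected counts rounded to whole numbers.

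Members, roles, pairs and lists were chosen with earlier results of these data known. Named with values were the genes of the pairs, the highest 2 and the lowest member of each of 14 roles, members not detected and the highest gene of each list. Promoter motifs, shared windows, ratios across families and Eif2s2, Eif3a, Eif3d, Eif3f and Eif5 were chosen after their values were seen. So were Asns, Atf3, Chac1, Ddit3, Sesn2 and Trib3.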

Additional observations from a re-analysis of the deposited data

Results flagged for a closer look

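Reads were also listed for 4 pseudogenes named after translation factors, which belong to no comparison above, at levels over the limit that a count of 0 allows in both libraries. Eif4a-ps4 had a mean of 35.5 TPM (958 and 661 counts), Eif1-ps1 2.16 TPM (10.1 and 10.3 counts), Eif5al3-ps 1.60 TPM (14.5 and 8.46 counts) and Eif3s6-ps1 0.84 TPM (8.69 and 4.34 counts). Eif4a-ps4 is the gene that shares 60.8% of the 100-base windows of Eif4a1, and whether its reads came from it was not tested.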

How the results depend on the processing

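The median level of the members, 80.5 TPM, was 78.3 TPM from posterior means, 97.7 TPM when rescaled over nuclear protein-coding genes, 69.8 TPM over coding transcripts, 50.3 in FPKM units, and from 78.67 to 79.88 TPM with a library left out. Members detected were 64 in the main setting, 63 over coding transcripts, where Eif2ak2 lay under 1 TPM, and 61 at a TPM of 5 or more. All but 3 of the 18 pair ratios kept their direction and call under every other setting tried. Eif4a2 over Eif4a3 became separated by counts (log2 0.78), by Poisson intervals (0.27) and in replicate 2 alone. Its log2 ratio was 0.064 and 0.467 in the single libraries and -0.037 over coding transcripts, where it was not separated. Eif1 over Eif1b fell to 0.44 and Eif1ax over Eif1a was -0.45 over coding transcripts, and Eif3j1 over Eif3j2 was 0.063 by counts. The number of members with a coding share under 80% was 4 by counts, where short transcripts weigh less by construction. The share with a pyrimidine start was 26% within 5 bases. No member differed between the embryos at 1.5-fold, at lower TPM minimums, without the interval rule, by TMM or over coding transcripts. Of all nuclear protein-coding genes, 10368 of them compared in the main setting, 520 were higher and 29 lower at 1.5-fold. The numbers were 103 and 15 at a TPM of 1 and 178 and 27 with no minimum, settings that compare more genes than 10368. Without the interval rule they were 27 and 12. By TMM they were 2 and 11, and over coding transcripts 28 and 8. The calls at 1.5-fold are a larger part of all genes than the 0.231% higher and 0.0772% lower at 2-fold. In no setting was 0 members called read as a trait of the members. No paired analysis was possible because there is 1 group. Other causes of these shifts were not tested. Every SD rests on 2 libraries, and levels of members that share windows with other genes are limited by how reads were split.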
